A study of Mus musculus with 31 samples.

Results

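Gene expression in the hippocampus was compared between 4.5 and 9 months of age, the step from young to middle adulthood in the mouse. The comparison used the 12 arrays of these ages out of 31 arrays in the series, 6 at each age, chosen by the age and genotype that their labels give. At each age 3 mice were Glud1 transgenic (Tg) and 3 were wild type (wt), with 1 mouse for each array. All were C57BL/6 males. The Tg mice carry an additional copy of the mouse gene for glutamate dehydrogenase 1 that is expressed in neurons, so that the enzyme that links glutamate to the tricarboxylic acid cycle is raised in neurons and not in glia. The wt mice have the same strain background, are of the same ages and lack the transgene. Total RNA came from the homogenized hippocampus, and every value below is therefore a sum over neurons, glia and vessels. A lower value can come from fewer cells of a type or from less RNA per cell, and these cannot be told apart here. The age change is the mean log2 signal at 9 months minus that at 4.5 months, fitted by limma over both genotypes with genotype as a covariate and given with its standard error (SE). A probe set rose or fell where its p, after Benjamini-Hochberg adjustment over the 24701 tested probe sets, was under 0.05. A gene is represented by the tested probe set with its highest mean signal.

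By 4.5 months the mouse hippocampus is mature. Its excitatory neurons in the dentate gyrus and the CA fields use glutamate, which is loaded into synaptic vesicles, released, and sensed by AMPA, NMDA and kainate receptors held in the postsynaptic density by scaffold proteins. The energy for this transmission comes largely from the respiratory chain of mitochondria, whose complexes I to V pass electrons to oxygen and make ATP, and whose subunits are encoded mostly in the nucleus. Proteins are made on cytosolic ribosomes, a small set of mitochondrial proteins on mitochondrial ribosomes, and many are removed by the proteasome.

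The array controls differed between the ages and were examined first. The 18S ribosomal RNA control at its 3' end lay between 6.19 and 6.96 on the log2 scale of the deposited signal on the 6 arrays at 4.5 months and between 9.93 and 13.77 at 9 months. The wt arrays 1 and 2 at 9 months had the highest values, 13.77 and 13.34. All 4 spiked-in poly-A RNAs, which are added to the sample before labelling, were lower at 9 months with no overlap. Dap fell by 1.90 and Lys by 1.79 on the log2 scale. Of the spiked-in hybridization controls, which are added after labelling, BioB differed by 0.03 and BioD by -0.05 with overlapping arrays, whereas BioC fell by 0.46. The log2 ratio of 3' to 5' signal of beta-actin was 0.35 to 0.46 at 4.5 months and 0.71 to 0.96 at 9 months, while that of Gapdh was -0.08 to 0.02 and -0.41 to -0.14. The B1 repeat was higher at 9 months by 0.50. Of 18 such measures, 12 differed at an adjusted p of 0.00325 by a two-sided exact permutation test over the 12 arrays, which came from the smallest p that this design allows, 0.0021645. These measures moved with age on all 12 arrays, and their part in the results below cannot be told apart from that of age. Counts from fits with the Gapdh ratio, the beta-actin ratio or the 18S signal as a covariate are given with the gene groups.

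**Figure D1:**
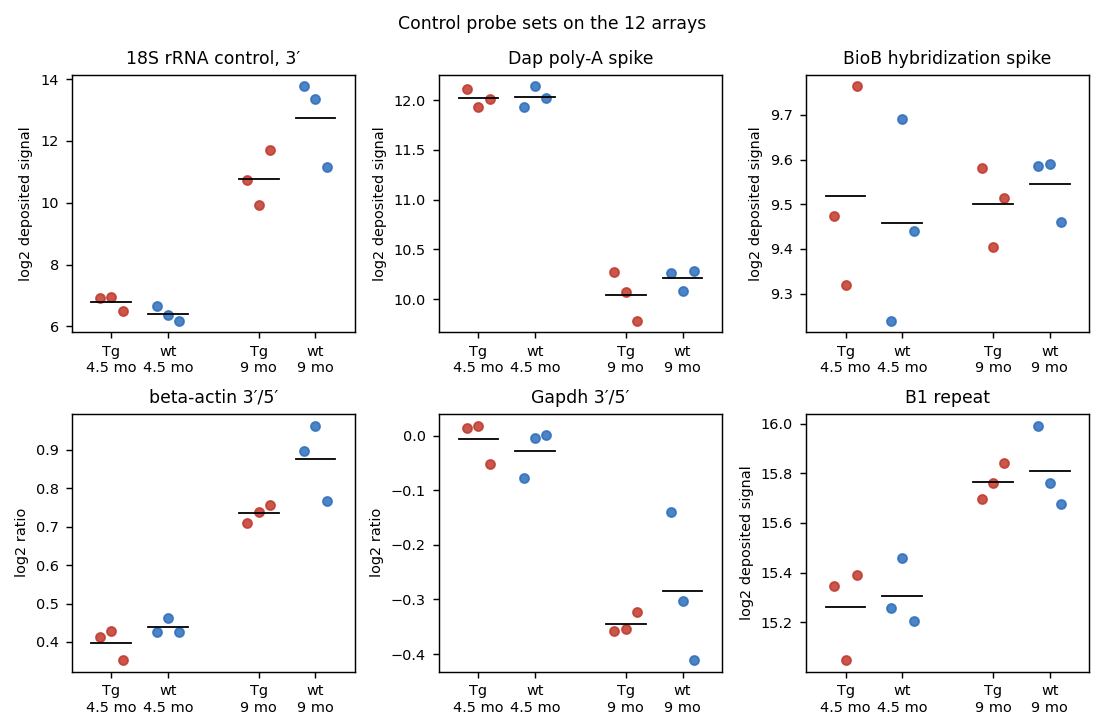
Control probe sets on the 12 arrays, as log2 of the deposited signal or as log2 of the 3' over the 5' signal. Points are single arrays (red, Tg; blue, wt) and lines are group means of 3 arrays. The 18S, Dap, beta-actin, Gapdh and B1 values of the 2 ages do not overlap, and those of BioB do.

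A large share of the transcriptome differed between the ages. Of 24701 probe sets, 4840 rose (19.6%) and 4955 fell (20.1%). Among 11985 genes, 2170 rose (18.1%) and 2445 fell (20.4%), and these 2 shares are the background for every count of genes below. All 6 arrays at 9 months lay above all 6 at 4.5 months for 1084 genes (9.04%) and below them for 1226 (10.2%). Changes above 2-fold were found in 667 probe sets that rose and 679 that fell. The median change of all genes was -0.02. Probe sets of the same gene did not always move together. Of 5683 genes with several tested probe sets, 635 had probe sets called in both directions, and such genes are marked below. With the Gapdh ratio as a covariate 938 probe sets rose and 1402 fell. With the 18S signal the counts were 197 and 332, and with the beta-actin ratio 5 and 19. The values of these 3 measures do not overlap between the ages, so a fit that holds them has little age contrast left. Without wt arrays 1 and 2 at 9 months, 4285 probe sets rose and 4503 fell.

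The 15 largest rises among well expressed genes without overlap included 2 RNAs that stay in the nucleus. Malat1, a long noncoding RNA of nuclear speckles, was at 11.83 (lowest), 12.06 (median) and 13.01 (highest) at 4.5 months and at 13.88, 14.62 and 14.85 at 9 months on the log2 scale. Every array at 9 months was higher than every array at 4.5 months, a 4.76-fold difference (2.25 ± 0.24, SE, limma adjusted p = 5.82e-05), and all 7 probe sets rose. Neat1, the scaffold of nuclear paraspeckles, rose by 1.34 ± 0.13 in its most highly expressed probe set, while its other probe set was level at 0.01. Of the 12 measured nuclear long noncoding RNAs, 7 rose and none fell, with a median change of 0.50. Gas5, a host gene of small nucleolar RNAs, rose by 0.95 and Snhg12, another such host, by 0.74. With the Gapdh ratio as a covariate 4 of the 12 rose, with the 18S signal 1 rose, and without wt arrays 1 and 2 at 9 months 8 rose.

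Other genes among the 15 largest rises have different known roles. Slc44a2, a choline transporter-like protein, rose 2.79-fold from a median of 8.42 to 9.84. Nsd3, a histone methyltransferase, rose by 1.10, Polr3k, a subunit of RNA polymerase III, by 1.15, and H2ac19, a replication-type histone, by 1.38. Krit1, a regulator of endothelial junctions, rose by 1.08 and Ttc14 by 1.18. Erdr1 rose by 1.32 with a wide spread at 4.5 months, from 9.59 to 11.38. The probe sets of Kctd7 (1.68 and -0.76) and Ajap1 (1.22 and -0.55) went in opposite directions, both called.

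The remaining large rises were small subunits of the respiratory chain and the ribosome. Atp5e, the epsilon subunit of ATP synthase, was at 10.53, 10.77 and 10.82 (lowest, median, highest) at 4.5 months and at 11.92, 12.08 and 12.34 at 9 months. It rose 2.62-fold (1.39 ± 0.07, limma adjusted p = 1.3e-09). Cox8a, a subunit of cytochrome c oxidase, was at 11.79, 12.11 and 12.23 and then at 13.21, 13.29 and 13.51, a rise of 1.23 ± 0.07. In both genes all arrays at 9 months were above all at 4.5 months. Atp5mpl, a small membrane subunit of ATP synthase, rose by 1.10.

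Of 33 measured genes of complex I, which takes electrons from NADH, 24 rose and 1 fell, against 18.1% and 20.4% of all genes. The median change was 0.28. Ndufs5 was at 11.78, 12.05 and 12.24 at 4.5 months and at 12.73, 12.81 and 12.90 at 9 months, 1.70-fold higher (0.77 ± 0.06, limma adjusted p = 1.03e-07). Ndufb7 rose by 0.80, Ndufs4 by 0.76 and Ndufb2 by 0.70, each without overlap of the arrays. Ndufb6 was the member that fell, by 0.26, and its other probe set rose by 0.29. In complexes II to V, which carry electrons to oxygen and make ATP, 21 of 38 rose and 7 fell, with a median of 0.16. Uqcr11, a small subunit of complex III, rose by 0.87, and Atp5l, subunit g of ATP synthase, by 0.83. The 7 that fell lay between -0.36 and -0.11. On the deposited signal without quantile normalization, 28 of these 38 rose and 1 fell, with a median of 0.45. A fit that held the Gapdh ratio left 10 risen and 0 fallen in complex I and 11 risen and 3 fallen in complexes II to V. The fit with the 18S signal left 0 risen in complex I and 4 in complexes II to V, with medians of 0.21 and 0.09, and none fallen.

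Ribosomal protein genes rose more often than they fell. Of 78 listed genes for cytosolic ribosomal proteins only 43 were measured. Of these 43, 25 rose and 2 fell, with a median change of 0.17. Rps19 was at 11.88, 11.98 and 12.10 at 4.5 months and at 12.94, 13.17 and 13.46 at 9 months, 2.31-fold higher (1.21 ± 0.07, limma adjusted p = 3.52e-09). Rplp2, a protein of the ribosomal stalk, rose by 0.76, Rps9 by 1.03 and Rpl27 by 0.88. A second probe set of Rps9 was level at 0.02 and 1 of 3 for Rpl27 was at -0.08. Rpl37 fell by 0.35, a call lost when any of 8 single arrays was left out, and Rps29 fell by 0.13 but rose by 0.30 without quantile normalization. Under that setting 36 of the 43 rose, with a median of 0.41. These genes have many processed pseudogenes, and their probe sets may share signal with such copies. Of 74 mitochondrial ribosomal proteins, 42 rose and 6 fell, with a median of 0.25. With each gene given the median change and median adjusted p of its tested probe sets, 30 rose and 9 fell. Mrpl12, Mrpl13 and Mrpl11 rose by 0.78, 0.71 and 0.63, while Mrpl45 fell by 0.73. When the Gapdh ratio was a covariate, 15 cytosolic and 12 mitochondrial ribosomal protein genes rose, and 0 and 4 fell. With the 18S signal 3 and 0 rose and none fell, with medians of 0.11 and 0.07.

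In the proteasome, which degrades ubiquitinated proteins, 19 of 40 genes rose and 4 fell, with a median of 0.17. Psmb3, a beta subunit of the core particle, was at 10.81, 10.95 and 11.09 at 4.5 months and at 11.64, 11.70 and 11.9999 at 9 months, a rise of 0.82 ± 0.07. Psma3, an alpha subunit, rose by 0.59 and Psmc1, an ATPase of the cap, by 0.51. Psme3, an activator found in the nucleus, fell by 0.78 in one probe set and rose by 0.47 in the other. Among 41 splicing and RNA-binding factors 21 rose and 6 fell. Sf3b1, a core component of the U2 particle, rose by 0.74, Tra2b by 0.62 and Srsf5 by 0.55, whereas Hnrnpl fell by 1.05. In the fit with the Gapdh ratio 6 proteasome genes rose and 1 fell, and 3 splicing factors rose and 4 fell. With the 18S signal 1 proteasome gene and 2 splicing factors rose and none fell. None of the genes in the 7 lists with mostly rises described so far was called with the beta-actin ratio as a covariate, and medians then ranged from 0.07 to 0.56.

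Promoters of such genes often hold short motifs of widely used transcription factors, and they are shown here because members of these lists moved together. Sequences are from RefSeq (GRCm38.p6) and give the 150 bases before the annotated start, 5' to 3' on the strand of the gene. Capitals mark matches on either strand to CCGGAAG (an ETS core), to GCCATNTT (a YY1 site) or to the NRF1 consensus.
Ndufs5 (chr4:123718187-123718336, minus strand): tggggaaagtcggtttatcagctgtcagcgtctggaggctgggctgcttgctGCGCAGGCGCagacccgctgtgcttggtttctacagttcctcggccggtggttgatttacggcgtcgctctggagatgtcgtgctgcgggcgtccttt
Ndufb7 (chr8:83566608-83566757, plus strand): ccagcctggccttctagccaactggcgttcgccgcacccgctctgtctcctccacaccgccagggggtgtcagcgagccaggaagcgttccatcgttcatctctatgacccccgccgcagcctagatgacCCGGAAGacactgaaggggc
Atp5e (chr2:174464102-174464251, minus strand): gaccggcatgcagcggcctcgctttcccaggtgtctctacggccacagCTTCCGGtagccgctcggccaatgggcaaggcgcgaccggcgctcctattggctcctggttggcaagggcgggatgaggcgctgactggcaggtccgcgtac
Rplp2 (chr7:141447501-141447650, plus strand): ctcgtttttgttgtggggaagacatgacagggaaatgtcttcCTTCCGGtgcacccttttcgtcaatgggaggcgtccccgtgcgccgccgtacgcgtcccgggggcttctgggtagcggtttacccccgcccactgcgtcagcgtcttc
Rps19 (chr7:24884442-24884591, plus strand): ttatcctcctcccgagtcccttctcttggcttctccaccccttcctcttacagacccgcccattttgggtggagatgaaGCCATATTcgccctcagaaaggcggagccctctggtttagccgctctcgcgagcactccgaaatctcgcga
Dlgap4 (chr2:156720815-156720964, plus strand): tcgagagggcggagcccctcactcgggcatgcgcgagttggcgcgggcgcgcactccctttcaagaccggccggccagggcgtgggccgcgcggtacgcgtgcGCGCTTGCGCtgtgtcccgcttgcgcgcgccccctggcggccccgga

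The last of these, Dlgap4, belongs to a gene that fell, and its window holds an NRF1 match as that of Ndufs5 does. Over windows of 250 bases before to 50 after the start, 31.5% of the 9716 tested genes with a promoter in the table held at least 1 of the 3 motifs. The share was 56.7% of 30 complex I genes, 68.4% of 38 cytosolic ribosomal, 64.6% of 65 mitochondrial ribosomal and 66.7% of 33 proteasome genes. It was 4 of 20 postsynaptic density genes. The ETS core alone was found in 19 of the 38 cytosolic ribosomal windows and in 17.4% of all windows of tested genes. The YY1 motif was found in 33.3% of the complex I windows and in 8.62% of all, and the NRF1 motif in 13.3% and 10.4%. A window with any of the 3 motifs was held by 39.7% of the risen genes, 26.7% of the fallen genes and 30.6% of genes that were not called. For complexes II to V (30 of 38 genes) and the vesicle genes (35 of 44) the share of genes with a window was slightly below those of the lists above. The check is treated as void for these lists, and their motif shares are not read. In further lists the share did not follow the direction of the list throughout. Where falls outnumbered rises, 34.6% of 26 chromatin genes and 0 of 11 GABA receptor genes held a motif. Where rises outnumbered falls, 36.1% of 36 splicing genes and 9.09% of 11 nuclear long noncoding RNAs did. A match says only that the letters are present. The lists also differ in length: the median span of the gene in the genome was 7.80 kb for complex I and 3.35 kb for cytosolic ribosomal proteins, against 25.0 kb for all genes tested.

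**Figure D2:**
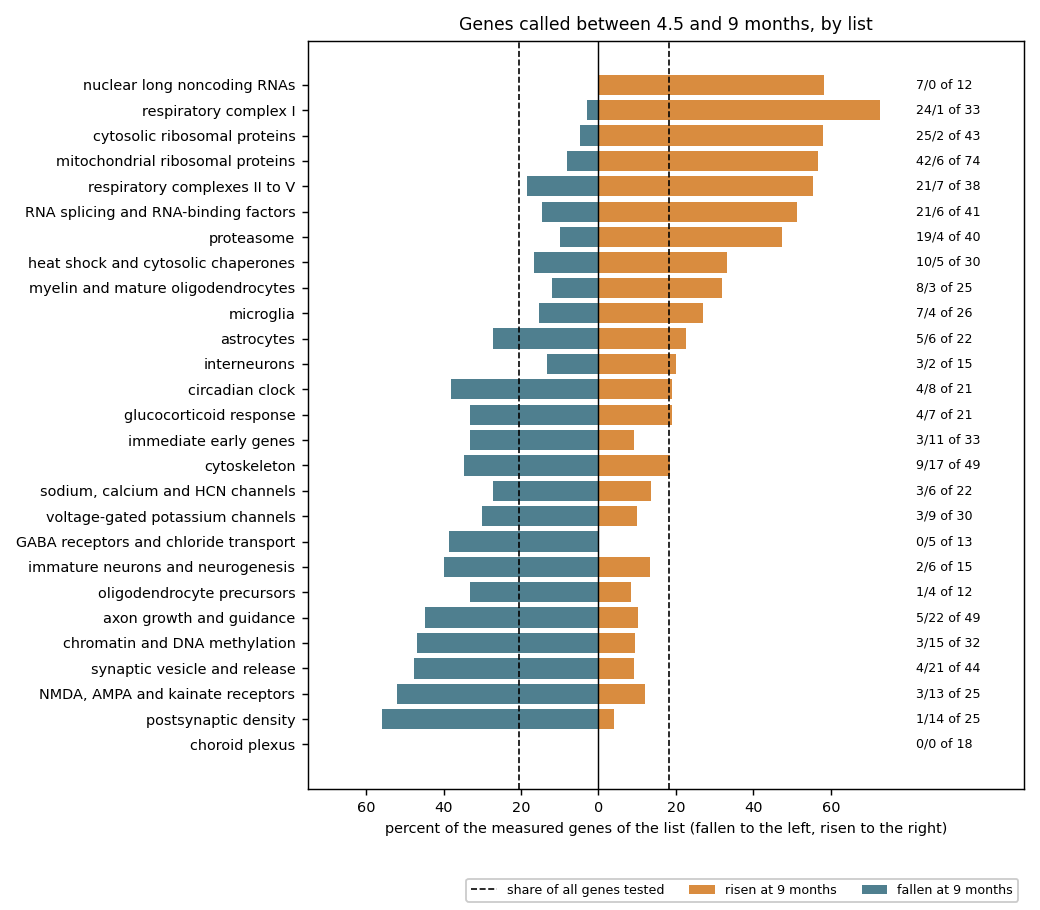
Percent of the measured genes of each list that rose (right) or fell (left) between 4.5 and 9 months, with the counts risen/fallen at the right margin. Dashed lines mark the shares of all genes tested, 18.1% risen and 20.4% fallen. The respiratory, ribosomal and proteasome lists extend to the right and the synaptic lists to the left.

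Genes of the excitatory synapse changed in the other direction. Prrt1, a partner of AMPA receptors, was among the 15 largest falls. It was at 12.67, 12.96 and 13.12 (lowest, median, highest) at 4.5 months and at 10.50, 11.004 and 11.11 at 9 months, 3.93-fold lower (-1.98 ± 0.09, limma adjusted p = 3.74e-10). In the postsynaptic density 14 of 25 measured genes fell and 1 rose, against 20.4% and 18.1% of all genes, with a median change of -0.36. Dlgap4, a scaffold that links PSD-95 to Shank proteins, was at 11.54, 11.55 and 11.65 at 4.5 months and at 10.64, 10.81 and 10.98 at 9 months. All 6 arrays at 9 months were below all at 4.5 months (-0.74 ± 0.06, limma adjusted p = 1.05e-07), and the second probe set fell by 0.73. Nlgn2, an adhesion protein of inhibitory synapses, fell by 0.60, and Dlg2, the scaffold PSD-93, by 0.64. Dlgap1 fell by 0.56, although its 5 probe sets ranged from -0.88 to 0.47. Dlg4, which encodes PSD-95 and is named here after its values were seen, fell by 1.12 ± 0.18. Its 9 month arrays were spread from 9.91 to 11.36. Ppp3cb, the catalytic subunit beta of calcineurin, was the member that rose, by 0.17, and another of its probe sets fell by 0.65. With the Gapdh ratio as a covariate 6 of the 25 fell and none rose, with the 18S signal 4 fell, and with the beta-actin ratio none was called. The median change was -0.38, -0.15 and -0.09 in these 3 fits.

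Of 25 NMDA, AMPA and kainate receptor subunits and their auxiliary proteins, 13 fell and 3 rose, with a median of -0.38. The median was -0.17 without wt arrays 1 and 2 at 9 months, when 12 fell and 2 rose. Grin2b, the NMDA receptor subunit GluN2B, was at 11.23, 11.37 and 11.40 at 4.5 months and at 9.94, 10.08 and 10.54 at 9 months, 2.28-fold lower (-1.19 ± 0.09, limma adjusted p = 3.26e-08). The groups did not overlap. Grin2d, the subunit GluN2D, fell by 0.84, Cacng2, the AMPA receptor partner stargazin, by 0.91, and Cnih2, an AMPA receptor chaperone, by 0.59. Of the 3 that rose, Neto1, a kainate receptor partner, rose by 0.34, Grik4, a kainate receptor subunit, by 0.49 and Shisa6, an AMPA receptor partner, by 0.33. In the fits with the Gapdh ratio and with the 18S signal 2 of the 25 fell, and with the beta-actin ratio none did, with medians of -0.31, -0.33 and -0.16. The call of Shisa6 was lost without Tg array 1 at 9 months.

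On the presynaptic side 21 of 44 vesicle and release genes fell and 4 rose, with a median of -0.17. Syn1, which tethers vesicles to the cytoskeleton, was at 13.26, 13.35 and 13.48 at 4.5 months and at 12.58, 12.80 and 12.83 at 9 months, 1.52-fold lower (-0.61 ± 0.04, limma adjusted p = 3.24e-08). All arrays at 9 months were below all at 4.5 months. Syt11, a synaptotagmin of the vesicle and endosome system, fell by 0.83 and all 5 of its probe sets fell. Syt7, a calcium sensor of slow release, was 2.46-fold lower and Vamp2, the vesicle SNARE of fast release, fell by 0.80, but each had another probe set that rose, by 0.69 and 0.70 on the log2 scale. The 4 that rose were Sypl, Pclo, Vamp1 and Syt4, by 0.30, 0.27, 0.27 and 0.20. The call of Syt4 was lost when any of 5 single arrays was left out and that of Vamp1 without Tg array 3 at 4.5 months, and probe sets of Sypl and Syt4 were called in both directions. Without quantile normalization 16 of the 44 fell and 12 rose. With the Gapdh ratio as a covariate 12 fell and 0 rose, with the 18S signal 7 fell, and with the beta-actin ratio none was called, while the median was -0.16, -0.17 and -0.25.

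**Figure D3:**
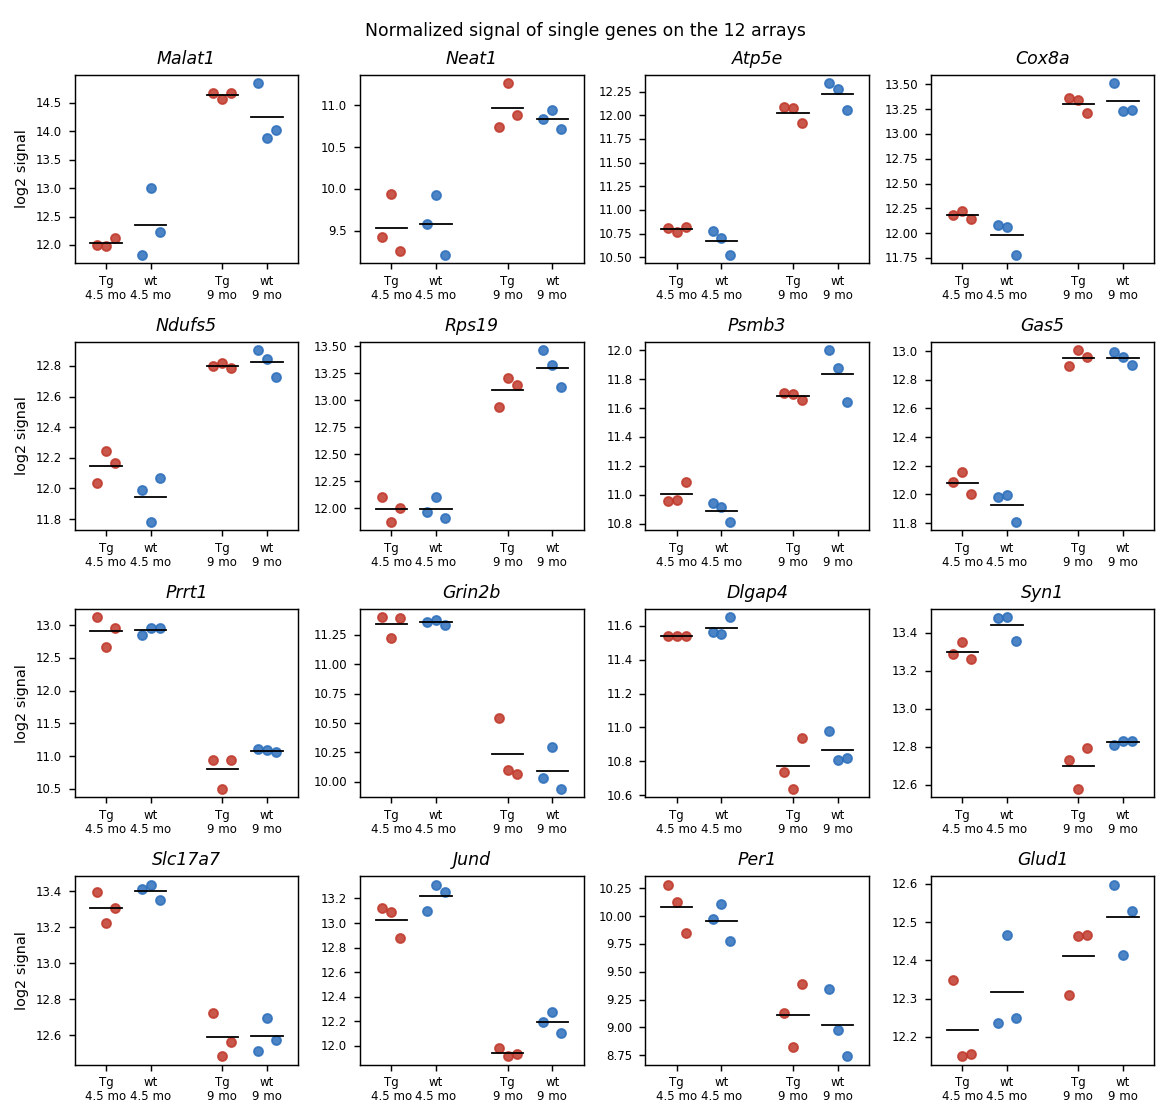
Quantile normalized log2 signal of 16 genes on the 12 arrays, each panel with its own axis. Points are single mice (red, Tg; blue, wt) and lines are means of 3 mice. All panels but that of Glud1 show no overlap between the ages.

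Genes of glutamate handling moved both ways. Slc17a7, the vesicular glutamate transporter VGLUT1 of hippocampal pyramidal and granule cells, was at 13.22, 13.37 and 13.44 at 4.5 months and at 12.49, 12.57 and 12.72 at 9 months (-0.76 ± 0.05, limma adjusted p = 1.43e-08). Slc30a3, which loads zinc into glutamatergic vesicles, fell by 1.38. Abat, which breaks down GABA, rose by 0.56. In the whole list of glutamate and GABA metabolism and transport, 5 of 22 genes rose and 7 fell, against 1 and 3 with the Gapdh ratio, 1 and 2 with the 18S signal and none with the beta-actin ratio as a covariate. The glial glutamate transporters had no single direction. The 4 probe sets of Slc1a3 (GLAST) ranged from -0.96 to 1.09 and the 5 of Slc1a2 (GLT-1) from -2.02 to 1.92, and the most highly expressed of Slc1a2 changed by -0.34 with quantile normalization and by 0.01 without it. Gad1, which makes GABA, fell by 0.50 in one probe set and rose by 0.28 in the other.

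Of 13 GABA receptor and chloride transport genes, 5 fell and none rose. Gabra3 fell by 1.23 in one probe set and 1.07 in the other, and Gphn, the scaffold gephyrin, fell by 0.36. Gabbr1, a subunit of the GABA-B receptor, fell by 0.21, a call that is lost without quantile normalization, and Gabrb2 had probe sets called in both directions. Among 30 voltage-gated potassium channel genes 9 fell and 3 rose. Kcnc1, the fast-spiking channel Kv3.1, fell by 1.38 with another probe set at 0.37. Kcnh3 fell by 0.73, and all 3 of its probe sets fell, Kcng1 fell by 0.63 and Kcna4 rose by 0.82. Among 22 sodium, calcium and HCN channels 6 fell and 3 rose (27.3% and 13.6%), shares near the 20.4% and 18.1% of all genes. Scn1a, the sodium channel Nav1.1, rose by 0.82, while Scn8a (Nav1.6) fell by 0.43, Hcn2 by 0.72 and Cacnb4 by 0.86. In the fit that held the Gapdh ratio 2 GABA receptor genes and 2 potassium channel genes fell, and 1 of the sodium, calcium and HCN channels fell and 1 rose. With the 18S signal 1 gene of these 3 lists fell, a sodium, calcium or HCN channel, and with the beta-actin ratio none was called.

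In the list of axon growth and guidance 22 of 49 genes fell and 5 rose, with a median of -0.22. Rgma, a repulsive guidance molecule, fell by 1.24 ± 0.13 and Efnb3, an ephrin, by 0.60. Dpysl2 (CRMP2), which promotes microtubule assembly in axons, rose by 0.43. Plxna2 rose by 0.41 in its most highly expressed probe set and had others that fell, down to -0.62. Of 32 genes of chromatin and DNA methylation 15 fell and 3 rose, with a median of -0.21. Hdac11 and Hdac5, histone deacetylases, fell by 0.68 and 0.57, and Dnmt3a, a DNA methyltransferase, fell by 0.68 with probe sets from -1.05 to 0.23. Hdac3, Kat2b and Ezh1 rose by 0.39, 0.43 and 0.27. When the Gapdh ratio was a covariate, 2 axon genes fell and 2 rose, while 4 chromatin genes fell and the median of the chromatin list was 0.00. The 18S signal left 1 axon gene that fell and 1 that rose, and 1 chromatin gene that fell. With the beta-actin ratio no gene of either list was called, with medians of -0.18 and -0.17.

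Other genes among the 15 largest falls were Polr2a, the largest subunit of RNA polymerase II, Ap2b1, an adaptor of clathrin, and Eml2, a microtubule-binding protein. Polr2a went from 10.75, 10.95 and 11.01 to 8.82, 9.35 and 10.06 (-1.53 ± 0.13), and both its probe sets fell. Ap2b1 fell by 1.72 with 9 month arrays from 9.19 to 11.44. Eml2 fell by 1.70, P4htm, a prolyl hydroxylase of the endoplasmic reticulum, by 1.69, Klf16 by 1.45, Ttyh3 by 1.44, Ube2r2, a ubiquitin-conjugating enzyme, by 1.41, Wipf2 by 1.39 and Caln1 by 1.37. Gas7 fell by 2.26 in its most highly expressed probe set, whereas 1 of its 4 probe sets rose and 2 fell. AY036118 fell by 1.39, with values at 9 months from 8.76 to 11.55, and rose by 2.77 with the beta-actin ratio and by 1.54 with the 18S signal as a covariate, neither called. Prrt1, Polr2a and Ttyh3 remained below an adjusted p of 0.05 with the beta-actin ratio as a covariate, at 0.0247, 0.00409 and 0.0162.

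Immediate early genes, which neurons switch on after activity, fell more often than they rose, 11 of 33 against 3. Jund, an AP-1 factor, was at 12.88, 13.11 and 13.31 at 4.5 months and at 11.92, 12.04 and 12.27 at 9 months (-1.06 ± 0.05, limma adjusted p = 1.09e-09), and it was also called with the beta-actin ratio as a covariate (limma adjusted p = 0.0109). Nptx2, which clusters AMPA receptors, fell by 1.22 and Vgf, a secreted peptide precursor, by 0.69. Npas4, Btg2 and Ptgs2 rose by 1.32, 0.93 and 0.49. For Npas4 the arrays overlapped and the change was -0.41 with the Gapdh ratio as a covariate, and the second probe set of Btg2 was at -0.50 without a call. The call of Ptgs2 was lost when any of 8 single arrays was left out. In the whole list 4 genes fell with the Gapdh ratio as a covariate, 2 fell and 2 rose with the 18S signal, and 1 fell with the beta-actin ratio, with medians of -0.51, 0.03 and 0.25 against -0.15 without a covariate.

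In the circadian clock list 8 of 21 genes fell and 4 rose. Per1, a repressor of the clock and also an activity and glucocorticoid responsive gene that belongs to all 3 lists, was at 9.78, 10.05 and 10.28 at 4.5 months and at 8.74, 9.06 and 9.39 at 9 months (-0.95 ± 0.12, limma adjusted p = 1.15e-05). Nr1d1 (Rev-erb alpha), the repressor of Arntl, fell by 0.98, and Ciart, another clock repressor, by 0.75, both without overlap. Arntl (Bmal1), which drives these repressors, rose by 0.48, from 8.67, 9.03 and 9.34 to 9.29, 9.52 and 9.69. Per2 fell by 0.53 and Per3 rose by 0.67. With each gene given the median change and median adjusted p of its tested probe sets, 7 clock genes fell and 0 rose. The rises of Arntl and Per3 were thus not called in that setting. Clock fell by 0.38 in one of 4 probe sets, which ranged up to 0.49, and Csnk1d, a clock kinase, had probe sets called in both directions. The mice were kept in a light and dark cycle, and the time of day at which tissue was taken is not given in the sources used here. In the glucocorticoid response list 7 of 21 genes fell and 4 rose. Ddit4, an inhibitor of mTOR signalling, was at 10.81, 11.14 and 11.65 and then at 9.53, 9.68 and 10.33 (-1.41 ± 0.15). Fkbp5, the co-chaperone of the glucocorticoid receptor, fell by 0.45 and Tsc22d3 (Gilz) by 0.34. Klf9 fell by 0.28, a call lost without quantile normalization, although all 6 of its probe sets fell. Mt1, a metallothionein, rose by 0.59 and Gjb6, connexin 30 of astrocytes, by 0.68. In the fit that held the Gapdh ratio 1 clock gene rose and 1 glucocorticoid responsive gene fell, with the 18S signal 1 of each list fell, and with the beta-actin ratio none was called.

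Markers of cell types changed in both directions. Of 25 genes of myelin and mature oligodendrocytes 8 rose and 3 fell, with a median of 0.11. Olig1 rose by 0.41, Cryab by 0.56, Aspa by 0.48 and Ermn by 0.47. The 3 that fell were Olig2 (-0.33), Cldn11 (-0.28) and Mbp (-0.15), and the 8 probe sets of Mbp ranged from -0.87 to 1.19. Of 12 genes of oligodendrocyte precursors 4 fell and 1 rose, with a median of -0.23. Those that fell included C1ql1 (-1.04), Cacng4 (-1.26) and Cspg4 (-0.62), and the called genes Olig1 and Olig2 belong to both lists. Microglial genes rose in 7 cases and fell in 4 of 26. Aif1 (Iba1) rose by 0.91 and Fcgr3 by 0.39, and Laptm5 fell by 0.42 with probe sets called in both directions. Trem2, a receptor for lipids, was at 3.50, 5.56 and 7.20 at 4.5 months and at 7.47, 7.74 and 8.26 at 9 months. The groups did not overlap (2.27 ± 0.45), but these signals lie low on the arrays and no detection calls were available. Astrocyte genes rose in 5 and fell in 6 of 22 cases (22.7% and 27.3%), shares near the 18.1% and 20.4% of all genes. Of 22 endothelial genes 6 fell and 2 rose, and Eng, Slc7a5, Flt1 and Cdh5 fell by 0.67, 0.66, 0.69 and 0.92. Holding the Gapdh ratio, 2 myelin genes rose, 1 precursor gene rose and 1 fell, and 1 gene each of microglia, astrocytes and endothelium fell. With the 18S signal 1 astrocyte gene fell, and with the beta-actin ratio no gene of these lists was called.

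Markers of hippocampal neurons were present on all 12 arrays, with a summed linear signal of 16553 to 20171 at 4.5 months and 14591 to 19660 at 9 months over 7 measured genes. Of these 7, 4 fell and 1 rose, with a median of -0.28. Prox1 fell by 0.74, Emx2 by 0.66, Wfs1 by 0.36 and Neurod6 by 0.28, and Grik4 rose by 0.49, all with overlapping arrays. None of the 7 was called with the Gapdh ratio, the 18S signal or the beta-actin ratio as a covariate. The lists of single hippocampal fields went both ways. Of 13 genes of dentate granule cells 3 fell and 2 rose (23.1% and 15.4%), near the shares of all genes, with a median of -0.01. Lct and Dock10 rose by 0.49 and 0.23. The call of Lct was lost when any of 4 single arrays was left out. Of 8 CA1 genes 3 fell and none rose. Of 13 CA2 and CA3 genes 5 fell and 2 rose, and Cpne4, Necab2 and Prss23 fell by 0.57, 0.56 and 0.67 without overlap. Holding the Gapdh ratio, 1 gene fell in each of these 3 lists and 1 CA2 and CA3 gene rose, and with the 18S signal or the beta-actin ratio none was called. Of 15 interneuron genes 3 rose and 2 fell (20.0% and 13.3%), against 18.1% and 20.4% of all genes, with a median of -0.02. Pvalb, Reln and Sst rose by 0.57, 0.27 and 0.26 (Sst not without wt array 2 at 4.5 months or Tg array 2 at 9 months). Gad1 fell, as given above, and Crh fell by 1.37 from a low level (6.87, 7.40 and 8.52, then 5.21, 6.34 and 6.55). In the list of immature neurons 6 of 15 genes fell and 2 rose. Tbr1 fell by 0.93, Marcksl1 by 0.67, Tubb2b by 0.55 and Neurod1 by 0.42. Sox2 rose by 0.29 and Ncam1 by 0.31, with probe sets of Ncam1 from -0.20 to 1.34. The other 7 genes were not called, among them Dcx (0.23) and Tubb3 (-0.06), and the median of the list was -0.06. Covariates left 3 that fell (Gapdh ratio) or none (18S signal, beta-actin ratio), and 2, 0 and 0 interneuron genes that fell. Genes of the choroid plexus, a neighbour of the hippocampus in the ventricle, varied from mouse to mouse within both ages. Their median change was 0.80, with -0.29 in Tg and 1.85 in wt mice. Their summed signal over 18 genes ran from 2122 to 56588 at 4.5 months and from 6035 to 58994 at 9 months, none was called, and Ttr lay between 8.52 and 15.11 and between 11.99 and 15.23. Among 18 markers of neighbouring brain regions 5 fell and 4 rose (27.8% and 22.2%), near the shares of all genes. Their summed signals were 8075 to 10106 and 6973 to 10203. Lef1 and Tcf7l2 fell by 1.19 and 1.15 from low levels without overlap, whereas Plekhg1 rose by 0.60 without overlap and Rorb and Zic1 rose by 0.56 and 0.73 with overlapping arrays. The call of Zic1 was lost when any of 8 single arrays was left out. None of the 18 was called with any of the 3 covariates. Whether these markers have a part in the other results was not tested.

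The age change was then compared between the genotypes. In Tg mice 3246 probe sets rose and 3266 fell (26.4% in all), and in wt mice 2830 rose and 2959 fell (23.4%). The wt counts were 1067 and 1511 without wt arrays 1 and 2 at 9 months, a fit in which the remaining wt mouse of that age is assumed to vary like the others. Of the probe sets, 3813 were called in the same direction in both genotypes. The test of the difference itself, Tg change minus wt change, passed in 0 probe sets (0%), with a smallest adjusted p of 0.450 by limma. At an unadjusted p under 0.05 there were 1805 (7.31%). The median change of complex I was 0.22 in Tg and 0.36 in wt mice, that of mitochondrial ribosomal proteins 0.16 and 0.34, and that of the postsynaptic density -0.33 in both.

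The 10 genes with the smallest p for the difference, none of which passed, had values of the following kind. Kcns3, a silent potassium channel subunit, changed by -3.36 in Tg and -0.87 in wt mice, and Sox3, a factor of neural progenitors, by -4.36 and -0.62, both at low signals. H2aj changed by 0.45 and 1.22, Igfbp7 by -1.41 and -0.62, Btg2 by 1.42 and 0.43, Zeb2 by 1.04 and 0.06 and Ckmt1, a mitochondrial creatine kinase, by -0.53 and -0.04. Mboat2 (0.16 and -0.66), Gng13 (-0.34 and 0.32) and Fam43a (-1.33 and 0.53) had opposite signs.

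Glud1 was at 12.15, 12.24 and 12.47 at 4.5 months and at 12.31, 12.46 and 12.60 at 9 months, with overlapping arrays (0.20 ± 0.06, limma adjusted p = 0.0129). Its change was 0.19 in Tg and 0.20 in wt mice. The transgene does not carry the sequence that the Glud1 probe sets detect, which is at the 3' end of the endogenous transcript, so these values do not check the genotype labels.

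**Figure D4:**
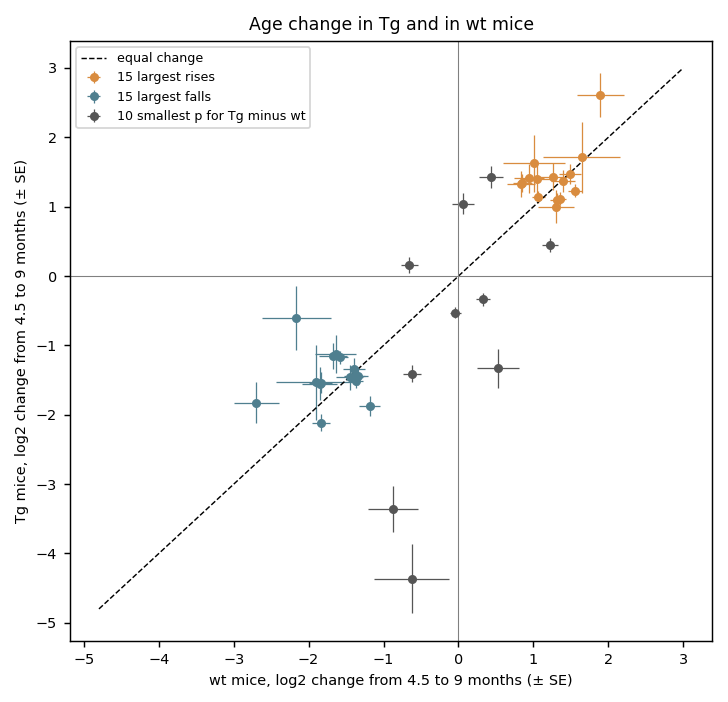
Log2 change from 4.5 to 9 months in Tg mice (vertical) against wt mice (horizontal), with SE bars, for the 15 largest rises, the 15 largest falls and the 10 genes with the smallest p for the difference. The rises and falls were chosen on the mean of both genotypes and lie in the upper right and lower left by that choice.

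The later intervals and the other ages place these values. Between 9 and 14.5 months 50.9% of 24828 probe sets were called, 6620 risen and 6009 fallen, and between 14.5 and 20 months 46.9% of 24108. The first of these comparisons shares the 9 month arrays with the comparison above. Mean levels at the other ages did not continue in one direction for several genes. Malat1 had a mean of 12.20 at 4.5 months, 14.45 at 9 months, 11.18 at 14.5 months and 13.27 at 20 months. Prrt1 had means of 12.92, 10.94, 12.44 and 10.53 at the same ages, and Grin2b 11.35, 10.16, 10.74 and 10.27. Atp5e (10.74, 12.13, 11.74 and 11.85) and Cox8a (12.08, 13.32, 13.20 and 13.19) were higher at the 3 later ages than at 4.5 months. For complex I the median over its genes, relative to the mean at 4.5 months, was 0.10 to 0.29 on the arrays at 10 days, 0.23 to 0.33 at 9 months, -0.02 to 0.16 at 14.5 months and 0.17 to 0.22 at 20 months. For the postsynaptic density it was -0.75 to -0.55, -0.37 to -0.14, -0.19 to -0.09 and -0.31 to -0.22 at these ages. The control measures also differ at these ages: the 18S control was 5.84 to 6.47 at 14.5 months and 8.99 to 9.36 at 20 months, the beta-actin ratio at 9 months was above that of every other age, and the Gapdh ratio at 4.5 months was above that of every other age.

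**Figure D5:**
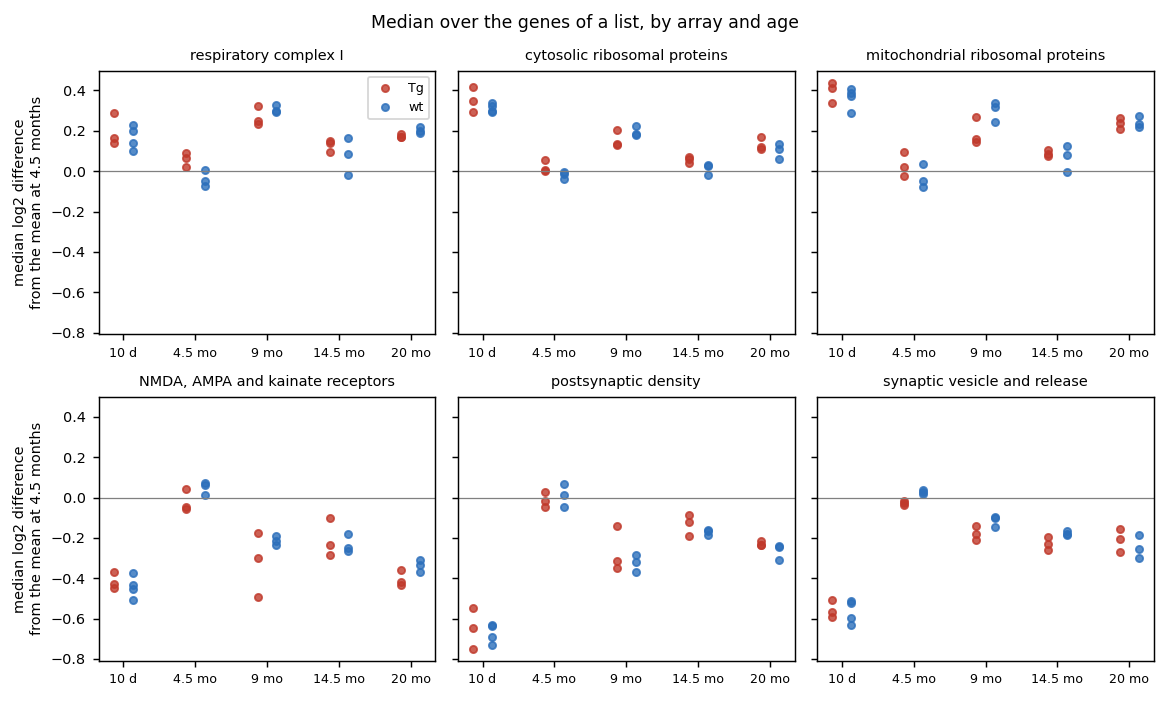
Median over the genes of 6 lists on each of the 31 arrays, as the log2 difference from the mean of the 6 arrays at 4.5 months, by age (red, Tg; blue, wt). The 4.5 month arrays lie near 0 by construction, the 3 upper lists lie higher at 9 months than at 4.5 months, and the 3 lower lists lie lower.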

How the data were processed

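The authors hybridized labelled RNA of each mouse to 1 Affymetrix mouse genome array and deposited the intensities as linear MAS5 signals, per the labels; version and settings of MAS5 are not given in the sources used here. The deposited intensities of each array were scaled to a trimmed mean of 500, as the values show, with array medians of 115 to 140 on the 12 arrays. Signals were taken to log2 and quantile normalized over all 31 arrays. Probe sets above the array median on at least 3 of the 12 arrays were tested. Fits used limma 3.58.1 (lmFit and eBayes, with trend and robust) in R 4.3.3, with genotype and age as terms for the mean age change and 4 group means for Tg, wt and their difference, and Benjamini-Hochberg adjustment over all tested probe sets. The script was tested on simulated data. Probe sets were named through the platform annotation: of 45037 mouse probe sets, 34945 have 1 gene, 932 several and 9160 none, and only the first kind is named. Promoters came from RefSeq; motifs were chosen after the values were seen. No detection calls were used, so low signals could not be set against background, and the number of arrays limits the precision. The RMA values of the study's methods were not used here.

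Named genes were the 15 largest rises and 15 largest falls among called genes with a mean level above the median of all tested probe sets and no overlap between the ages, up to 4 called genes of each list by smallest p, the 10 genes with the smallest p for the difference between genotypes, Glud1, and further members of the clock, immediate early, glucocorticoid, choroid plexus and blood lists as needed. Genes named to complete a count of 5 or fewer and Dcx, Tubb3, Dlg4, Lct and Zic1 fall outside this rule. They were chosen after their values were seen. The comparison and the gene lists were chosen with earlier results of these data known. Alternatives were no quantile normalization, quantile normalization of the 12 arrays alone, an offset, other filters and moderation, all 31 arrays in the fit, a stricter threshold, each array left out, the replicate number as a block, and the Gapdh ratio or hybridization controls as covariates. The beta-actin and 18S covariates, all covariates for the gene lists, and the removal of wt arrays 1 and 2 at 9 months were added after seeing the data. Equal replicate numbers did not pair mice: their deviations from the group means correlated from -0.19 to 0.18 over 18 pairs.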

Additional observations from a re-analysis of the deposited data

Results flagged for a closer look

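Within the 6 arrays of an age, 8 of 96 groups had a lowest or highest array far from the other 5, where chance gives about 1 in 20. The Lys poly-A control was at 5.02 on Tg array 3 at 9 months, with the next array at 6.55. Malat1 was at 13.01 on wt array 2 at 4.5 months (next 12.23), and Cox8a at 11.785 on wt array 3 at 4.5 months (next 12.07). On wt array 2 at 9 months Ttc14 was at 11.49 (next 12.02) and Krit1 at 9.21 (next 9.73). On Tg array 2 at 9 months Prrt1 was at 10.50 (next 10.95), Ddit4 at 10.33 (next 9.76) and Wipf2 at 9.26 (next 9.76). Their causes were not tested.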

How the results depend on the processing

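Counts of called probe sets depended most on array control measures held as covariates, whose values do not overlap between the ages. With the Gapdh ratio, the beta-actin ratio or the 18S signal as a covariate, 2340, 24 and 529 probe sets were called for the mean age change against 9795, 1450, 11 and 335 in Tg mice against 6512, and 2414, 1 and 16 in wt mice against 5789. Requiring a 1.3-fold change together with adjusted p up to 0.01 gave 5026, 3337 and 2875. Without wt arrays 1 and 2 at 9 months, 2578 were called in wt mice and 2 for the difference between genotypes, which gave 10 with all 31 arrays in the fit. Leaving out each array gave 8605 to 9562 for the mean change, 4583 to 7075 in Tg, 4338 to 5901 in wt mice and 0 to 2 for the difference (2 without wt array 1 at 4.5 months). With a replicate block the counts were 9547, 6189, 5581 and 0, so pairing by number moved none by over 1.5 times. Some gene lists changed when each gene had the median change and median adjusted p of its probe sets. Then 13 proteasome genes rose and 5 fell, and 4 nuclear long noncoding RNAs rose. Of the NMDA, AMPA and kainate receptor list 10 fell and 1 rose. Complex I had 24 risen and 0 fallen, and the postsynaptic density 13 fallen and 1 risen, near the main counts.

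The settings were not read for Mbp, Cldn11, Olig2, Ncam1 and Sox2. Among 166 other named genes that were called, the direction turned for these. With the beta-actin ratio the changes were AY036118 2.77, Slc30a3 0.20, H2aj -0.15, Dlg4 0.25, Grik4 -0.0164, Pclo -0.0933, Cryab -0.25, Aspa -0.14, Aif1 -0.38, Laptm5 0.0918, Marcksl1 0.0451 and Zic1 -1.15. With the 18S signal they were AY036118 1.54, Ptgs2 -0.0411, Fkbp5 0.0177, Laptm5 0.0851 and Zic1 -0.42, with the Gapdh ratio Ezh1 -0.11, Npas4 -0.41, Lct -0.26 and Dock10 -0.0322, and without quantile normalization Rps29 0.30 and Slc1a2 0.00746. The calls of 73 named genes held with the Gapdh ratio, of 43 with the 18S signal, of 4 with the beta-actin ratio and of 158 without wt arrays 1 and 2 at 9 months. With single arrays left out 9 named genes lost the call: Rpl37, Ptgs2, Zeb2 and Zic1 for 8 of the 12 arrays each, Syt4 for 5, Lct for 4, Sst for 2, and Shisa6 and Vamp1 for 1. The cause of these losses was not tested.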

Other observations

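Values of gene groups that have no place in the comparisons above are read here against 18.1% risen and 20.4% fallen among all genes. Of 30 heat shock and cytosolic chaperone genes 10 rose and 5 fell, with a median change of 0.07, and of 23 genes of cholesterol synthesis and regulation 7 rose and 2 fell. Of 49 cytoskeletal genes 17 fell and 9 rose, and of 37 neuropeptide and modulator receptor genes 11 fell and 4 rose, with a median of -0.17. The direction of the cytoskeletal list turned without quantile normalization, where 13 fell and 19 rose, with a median of 0.05. With the beta-actin ratio as a covariate no gene of these 4 groups was called. Among 32 genes of glycolysis and the TCA cycle 7 rose and 6 fell (21.9% and 18.8%), shares near those of all genes, with a median of -0.01. The counts were 12 risen and 4 fallen without quantile normalization, with a median of 0.10.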
